A study of Mus musculus with 24 samples.

Results

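Hlf, Mecom, Meis1, Gata3, Erg, Fli1, Tal1, Lmo2 and Etv6 encode transcription factors by which haematopoietic stem cells are commonly recognised, and their RNA was followed here through the first steps of blood differentiation in mice with and without the gene Mysm1. The 9 genes were picked by symbol from the 23364 gene symbols counted in each of 24 RNA-seq libraries, and all 9 were present and passed the filter on low counts that left 21456 genes to test. MYSM1 is a histone H2A deubiquitinase that blood stem cells need. Each library came from C57BL/6 bone marrow cells, pooled from several male and female mice aged 8 to 12 weeks and sorted as Lin-cKit+Sca1+CD150+Flt3- cells. Within that gate, HSC were CD34-CD48-, MPP1 (multipotent progenitors 1) were CD34+CD48- and MPP2 (multipotent progenitors 2) were CD34+CD48+. The Mysm1-KO libraries (called KO) came from Mysm1fl/fl CreERT2 mice given 8 injections of 0.15 mg tamoxifen per gram over 16 days, which removes exon 3 of the gene. The Mysm1-Het libraries (called Het) came from Mysm1+/fl CreERT2 mice with the same tamoxifen treatment, so Het controls share the Cre and the drug and carry 1 floxed allele. The libraries labelled Mysm1-WT (called Sham) came from Mysm1 fl mice given corn oil only. Each cell type had 3 KO, 3 Het and 2 Sham libraries, numbered 1, 2_3 and 4 in the labels (2_3 and 4 for Sham), and the promoter that drives CreERT2 is not given in the sources used here.

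As background, HLF, a PAR-domain leucine zipper factor, and MECOM, a zinc finger factor also known as EVI1, are among the factors most restricted to the stem cell and support its quiescence and self-renewal. MEIS1 is a homeobox factor that works with HOX and PBX proteins, and GATA3 is a GATA factor best known in T cells that is also made at a low level in stem cells. ERG, FLI1 and ETV6 belong to the ETS family, while TAL1 (SCL) binds DNA through E-boxes and is joined to GATA factors by the bridging protein LMO2. These proteins bind many of the same enhancers in blood progenitors.

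Promoter sequences are shown for the 4 genes with the largest falls from HSC to MPP2 in Het (Mecom, Hlf, Gata3 and Erg) and for Tal1, the member whose RNA differed least between those cells in Het. RefSeq (GRCm38.p6) gave 11 start sites for 7 of the 9 members, and Fli1 and Lmo2 had no entry. Each sequence is the 250 bases 5′ of a start, 5′ to 3′ on the gene's strand, with capitals marking every match on either strand to GATAA (GATA factors), CANNTG (the E-box), GGAAG (an ETS core) or TGACAG (a MEIS motif). Where matches of 2 motifs overlap, the capitals run together.
Hlf, chr11:90390918-90391167, minus strand: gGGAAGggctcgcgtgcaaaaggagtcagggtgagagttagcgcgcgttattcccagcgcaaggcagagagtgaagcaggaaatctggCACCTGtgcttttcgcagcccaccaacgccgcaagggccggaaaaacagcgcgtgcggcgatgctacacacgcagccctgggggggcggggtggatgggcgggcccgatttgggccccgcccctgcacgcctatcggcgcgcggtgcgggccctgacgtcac
Mecom, upstream start, chr3:30509760-30510009, minus strand: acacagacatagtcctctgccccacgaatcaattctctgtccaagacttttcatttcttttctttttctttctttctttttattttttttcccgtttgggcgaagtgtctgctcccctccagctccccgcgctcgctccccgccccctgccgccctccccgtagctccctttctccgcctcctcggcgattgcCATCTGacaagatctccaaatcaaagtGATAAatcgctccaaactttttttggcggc
Mecom, internal start, chr3:30013205-30013454, minus strand: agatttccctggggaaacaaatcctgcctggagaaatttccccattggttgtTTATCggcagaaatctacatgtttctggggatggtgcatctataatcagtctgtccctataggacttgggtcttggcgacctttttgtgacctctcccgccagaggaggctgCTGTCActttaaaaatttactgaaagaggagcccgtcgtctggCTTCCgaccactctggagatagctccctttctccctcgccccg
Gata3, chr2:9878601-9878850, minus strand: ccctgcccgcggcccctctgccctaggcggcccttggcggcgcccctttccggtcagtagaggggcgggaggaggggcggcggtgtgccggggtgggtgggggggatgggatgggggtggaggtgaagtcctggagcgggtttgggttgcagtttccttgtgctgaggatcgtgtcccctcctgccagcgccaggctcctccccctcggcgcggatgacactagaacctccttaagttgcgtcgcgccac
Erg, the start nearest the gene's 3′ end, chr16:95459349-95459598, minus strand: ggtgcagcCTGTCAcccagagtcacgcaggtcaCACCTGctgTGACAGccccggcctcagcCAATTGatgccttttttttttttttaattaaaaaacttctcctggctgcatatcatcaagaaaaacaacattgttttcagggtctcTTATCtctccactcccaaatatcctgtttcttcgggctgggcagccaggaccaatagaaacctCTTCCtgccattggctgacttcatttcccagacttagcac
Tal1, chr4:115056176-115056425, plus strand: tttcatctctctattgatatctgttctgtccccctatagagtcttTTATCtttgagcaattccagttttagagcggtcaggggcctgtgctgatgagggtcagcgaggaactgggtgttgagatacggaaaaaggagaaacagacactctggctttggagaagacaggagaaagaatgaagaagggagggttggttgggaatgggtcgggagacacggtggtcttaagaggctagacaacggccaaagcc

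In these windows Hlf had 1 E-box and 1 ETS core. The upstream Mecom start, from which the longer MDS1-EVI1 transcript begins, had 1 GATA match and 1 E-box, and the internal start had 1 GATA, 1 ETS and 1 MEIS match. The Erg start shown had matches to all 4 motifs (1 GATA, 2 E-box, 1 ETS and 2 MEIS), while of the other 2 Erg starts one had 0 matches and the other 1 ETS core. The Tal1 start shown had 1 GATA match and the second Tal1 start 1 ETS core. The Meis1 window had 1 E-box and 3 ETS cores, and those of Gata3 and Etv6 held no match. Among 32851 RefSeq promoter windows of this length, 22.6% held GATAA, 66.2% CANNTG, 64.1% GGAAG and 15.9% TGACAG, so single matches are common. Counts per gene cannot separate the starts of Mecom, Erg or Tal1.

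The libraries held 18823971 to 53196624 counts assigned to genes (median 30507914.5), and 15740 to 21150 genes had at least 1 count. A member's count ranged from 38 (Gata3) to 42027 (Lmo2), so Gata3 rests on the fewest reads. No 2 libraries were near copies of each other. The HSC libraries KO 1 and Het 2_3 had the fewest detected genes, and MPP2 Het 2_3 stood apart by its granulocyte RNA (a summed level of 13 neutrophil genes of 3552 CPM, counts scaled to library size, against 210 in the lowest Het library). Among the surface genes of the sort, Cd48 RNA was at most 2.81 CPM in every HSC and MPP1 library and 13.8 to 56.9 CPM in MPP2. Cd34 RNA was 119 CPM in the lowest MPP1 library and 106 CPM in the highest HSC library, but the Sham MPP2 libraries, sorted as CD34+, had 51.5 and 104 CPM and the lowest Het MPP2 library 67.6 CPM, within the HSC range of 44.1 to 106 CPM. Whole-gene Mysm1 counts, which include the exons outside the deletion, were 88.1 to 102 CPM in KO and 98.5 to 112 CPM in Het MPP2, overlapping, and so do not check the deletion. In bulk RNA of sorted cells, fewer cells of a type and less RNA per cell cannot be told apart.

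**Figure D1:**
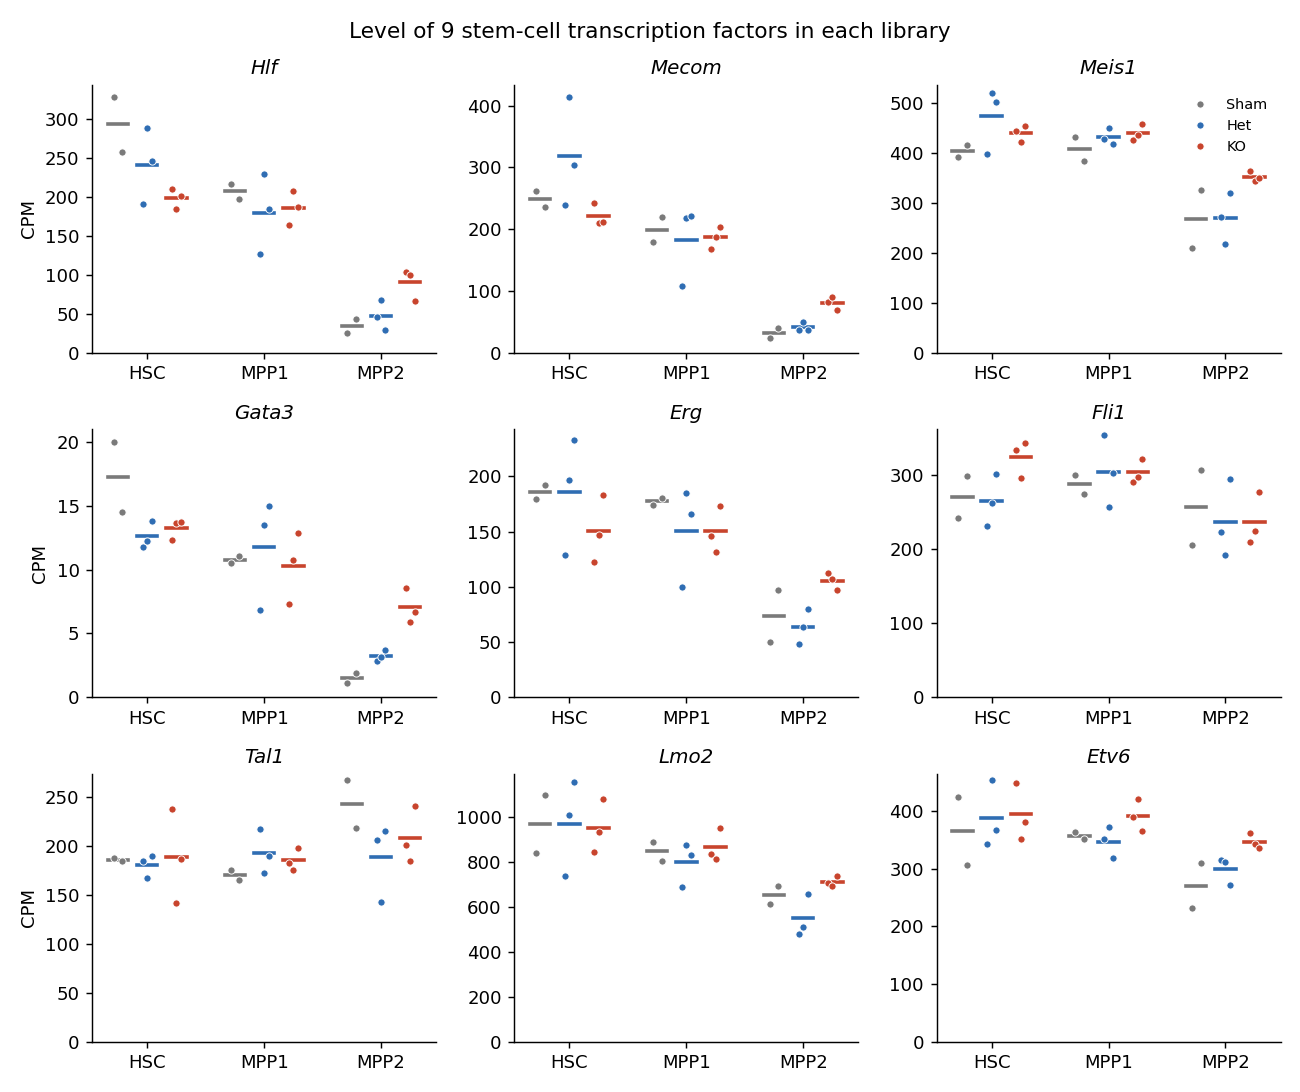
Level of each transcription factor gene in every library, in CPM (vertical axes from 0, with their own range for each gene), by cell type; each point is a library, colour gives the genotype and bars are group means. Hlf, Mecom, Gata3 and Erg are lowest in MPP2, while Tal1 is at a similar level throughout. In MPP2 the KO points lie above the Het and Sham points for Mecom and Gata3. For Erg the lowest KO point is level with the higher Sham point.

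Per kilobase of counted length, Lmo2 was the most abundant member in Het HSC at 154 CPM per kb, and Gata3 the least at 3.94 CPM per kb. Between them lay Fli1 (85.6), Erg (84.1), Etv6 (70.1), Meis1 (69.8), Mecom (57.9), Tal1 (43.3) and Hlf (42.7 CPM per kb). The length used for Lmo2 was 6299 bases against 2166 bases of exon in the GENCODE vM1 annotation, and that for Mecom was 5504 against 10581, so the ranks of those 2 genes depend on the gene model.

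The first comparison asked how the factors differ between stem cells and the progenitors they give rise to, in Het mice. From HSC to MPP2, 6 of the 9 genes fell: Mecom, Hlf, Gata3, Erg, Lmo2 and Meis1. Mecom and Hlf fell the most, to 12.8% and 19.6% of their mean HSC level, and none of the 9 rose. The 3 that did not pass the test were Etv6, Fli1 and Tal1. Of all 21456 genes tested, 8.37% fell and 18.0% changed in either direction in the same comparison (edgeR quasi-likelihood F test, Benjamini-Hochberg adjusted p under 0.05, two-sided).

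Hlf (mm9 chromosome 11, 90197849 to 90252231, minus strand) is the leucine zipper factor. Its level in Het HSC libraries 1, 2_3 and 4 was 191, 288 and 246 CPM, and in Het MPP2 it was 45.3, 67.5 and 29.3 CPM. Sham HSC stood at 329 and 258 CPM and Sham MPP2 at 25.2 and 43.6 CPM. No MPP2 library of either control group reached the lowest HSC library. The fitted log2 change in Het was -2.35 ± 0.29 (SE; adjusted p = 1.09e-05, edgeR).

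Mecom (mm9 chromosome 3, 29850221 to 30446930, minus strand), the zinc finger factor, went from 239, 414 and 304 CPM in Het HSC to 36.8, 50.1 and 35.9 CPM in Het MPP2. In Sham it went from 261 and 236 CPM to 23.0 and 39.2 CPM. HSC and MPP2 libraries were far apart in both control groups, and the log2 change in Het of -2.96 ± 0.26 (adjusted p = 9.65e-08, edgeR) was the largest fall among the members. Mecom was also the only member with an unadjusted p under 0.05 between MPP1 and HSC: its 3 Het MPP1 libraries, at 108, 219 and 221 CPM, were all below the 3 Het HSC libraries. That log2 change of -0.81 ± 0.24 did not pass (adjusted p = 0.294, edgeR), and 3.28% of all genes were lower at that unadjusted level. The fall did pass with genotype and library number as a block (adjusted p = 0.00927, edgeR).

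Meis1 (mm9 chromosome 11, 18780433 to 18918961, minus strand), the homeobox factor, stood at 399 to 520 CPM in Het HSC and at 218 to 320 CPM in Het MPP2, with a log2 change of -0.81 ± 0.15 (adjusted p = 0.000277, edgeR). Its fall was shallower than those of Hlf and Mecom, and in Sham the libraries did not overlap either, with 391 and 415 CPM in HSC and 210 and 327 CPM in MPP2. Gata3 (mm9 chromosome 2, 9778705 to 9811661, minus strand) was scarce throughout: 11.8, 12.3 and 13.8 CPM in Het HSC against 2.81, 3.14 and 3.72 CPM in Het MPP2, and 20.1 and 14.5 CPM against 1.12 and 1.87 CPM in Sham. Its log2 change in Het was -1.97 ± 0.33 (adjusted p = 6.03e-05, edgeR). It overlaps 2 other counted genes, 4930412O13Rik on the opposite strand and 9230102O04Rik on the same strand, which had 317 and 180 counts over all 24 libraries.

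Of the ETS factors, Erg passed the test and Etv6 lay near the threshold. Erg (mm9 chromosome 16, 95580776 to 95808200, minus strand) had 128, 197 and 233 CPM in Het HSC and 48.1, 63.4 and 80.2 CPM in Het MPP2, a log2 change of -1.54 ± 0.26 (adjusted p = 0.000307, edgeR). Its close relative Fli1 (mm9 chromosome 9, 32229793 to 32348974, minus strand) had 230 to 301 CPM in Het HSC and 192 to 294 CPM in Het MPP2, which overlapped. Etv6 (mm9 chromosome 6, 133985718 to 134220176, plus strand), an ETS repressor, had 343 to 453 CPM in Het HSC and 272 to 315 CPM in Het MPP2. Its libraries did not overlap, but the log2 change of -0.37 ± 0.15 did not pass (adjusted p = 0.0847, edgeR). Etv6 passed with RLE scaling (adjusted p = 0.0467), without HSC Het library 1 (0.0478, both edgeR), with DESeq2 (0.0300) and with limma-trend on the deposited table (-0.71, 0.00152).

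The partners Tal1 and Lmo2 parted. Lmo2 (mm9 chromosome 2, 103798143 to 103822035, plus strand), the bridging protein, had 737 to 1159 CPM in Het HSC and 480 to 657 CPM in Het MPP2, a log2 change of -0.82 ± 0.16 (adjusted p = 0.000429, edgeR). Tal1 (mm9 chromosome 4, 114729031 to 114744360, plus strand) had 167 to 189 CPM in Het HSC and 143 to 215 CPM in Het MPP2, so its MPP2 libraries spanned the HSC range. In Sham, both MPP2 libraries had more Tal1 (267 and 218 CPM) than both HSC libraries (187 and 185 CPM). That is the pattern in 26.4% of all genes in Sham, and was not tested in a model.

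**Figure D2:**
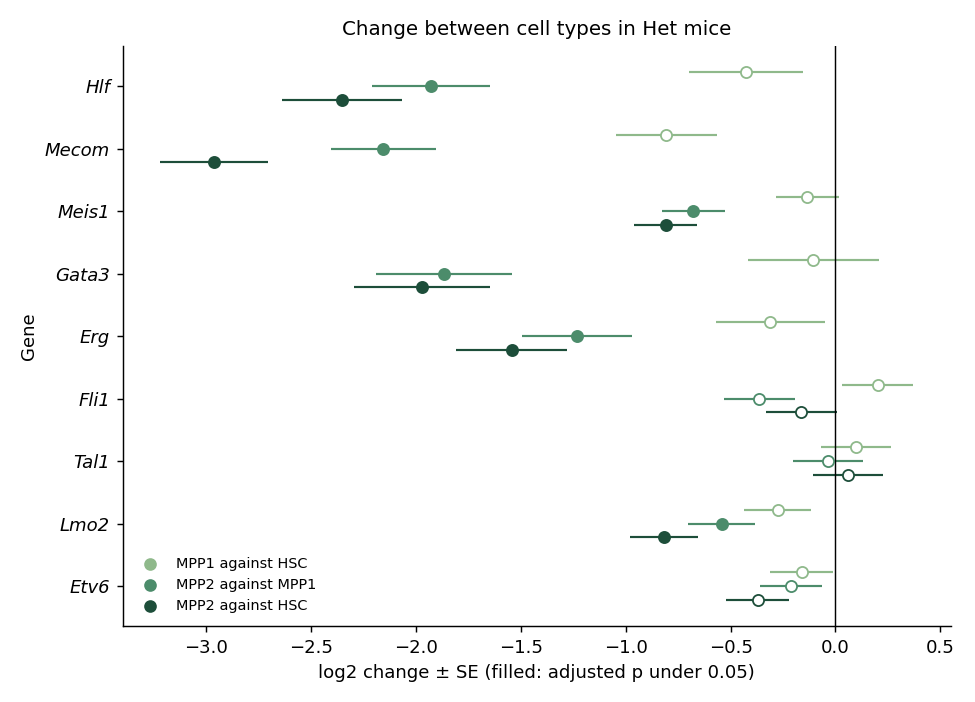
Log2 change of each gene between cell types in Het mice, with the standard error as bars; filled points have an adjusted p under 0.05. For MPP2 against HSC and for MPP2 against MPP1, 6 points each are filled, all to the left of 0, and for MPP1 against HSC none is.

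The step from HSC to MPP2 was also read through MPP1, the population between them. Between MPP1 and HSC in Het, 0 of 9 members passed by edgeR or DESeq2, and 0.0140% of all genes did by edgeR. Mecom alone had an unadjusted p under 0.05 (edgeR). With genotype and library number as a block, 1 member passed, Mecom (adjusted p = 0.00927, edgeR). Between MPP2 and MPP1 in Het, the same 6 genes fell as between MPP2 and HSC, against 4.26% of all genes that fell and 7.49% that changed. These log2 changes were -1.93 ± 0.28 for Hlf (adjusted p = 0.000258), -2.16 ± 0.25 for Mecom (1.45e-05) and -1.87 ± 0.32 for Gata3 (0.000371, edgeR). Erg changed by -1.23 ± 0.26 (adjusted p = 0.00592) and Meis1 by -0.68 ± 0.15 (0.00493, edgeR). For Lmo2 the change of -0.54 ± 0.16 was close to the threshold (adjusted p = 0.0334, edgeR), and it was lost without MPP1 Het library 2_3 (0.197) or 4 (0.136), without MPP2 Het library 1 (0.198) or 2_3 (0.100), without the filter on low counts (0.0626) and when only the groups compared were fitted (0.0840). Fli1 changed by -0.36 ± 0.17 and did not pass (adjusted p = 0.23, edgeR), though it did with limma-trend on the deposited table (-0.61, adjusted p = 0.00720). Whether the change from MPP1 to MPP2 differed from that from HSC to MPP1 was not tested, and mean Mecom in Het MPP1 was already at 57.2% of its HSC level. MPP2 and HSC also differed in summed levels of genes listed as markers of other cells. For 14 stromal and endothelial genes the sum was 295 to 330 CPM in Het HSC and 196 to 206 CPM in Het MPP2. Cdh5, an endothelial gene among them, was near the floor, with means of 1.85 CPM in Het HSC and 1.81 CPM in Het MPP2. Nearly all of that sum came from other genes, so Cdh5 does not stand for the list. For 12 megakaryocyte genes the sum was 558 to 825 CPM in Het HSC and 794 to 1893 CPM in Het MPP2, which overlapped. Endothelial cells and megakaryocytes use several of these factors, and the part of such cells in the falls was not tested.

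The central comparison of the study was KO against Het, where both groups had received tamoxifen. In HSC no member passed the test (0 of 9 by edgeR and 0 by DESeq2), against 0.615% of all genes. Mecom had the lowest unadjusted p: the KO libraries had 242, 210 and 211 CPM against 239, 414 and 304 CPM in Het. KO and Het overlapped through KO library 1 and Het library 1, and the log2 difference was -0.53 ± 0.24 (unadjusted p = 0.0388, adjusted p = 0.319, edgeR). At that unadjusted level 4.73% of all genes were lower in KO HSC. Hlf in KO HSC, at 210, 185 and 201 CPM, was within or below the Het range of 191 to 288 CPM and below both Sham libraries. The 8 members other than Mecom had log2 differences from Het of -0.31 (Erg) to 0.29 (Fli1). Megakaryocyte markers differed in the same comparison: 12 such genes summed to 1274 to 1733 CPM in KO HSC and 558 to 825 CPM in Het HSC, 11 of 12 were above 0 (median 1.42) and 1, Gp5, rose (1.60 ± 0.32, adjusted p = 0.0219, edgeR). The platelet chemokine gene Pf4 averaged 344 CPM in KO and 69.9 CPM in Het (2.30 ± 0.63, adjusted p = 0.111, edgeR). The part of such RNA in the members' values, the MPP2 levels in percent of HSC given further on included, was not tested.

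In MPP1, again 0 of 9 members passed between KO and Het by edgeR or DESeq2, and 0.0559% of all genes passed. An unadjusted p under 0.05 was reached by 0 members, against 8.67% of all genes. The log2 differences ranged from -0.19 for Gata3 to 0.18 for Etv6. Mean Hlf was 186 ± 22.1 CPM in KO (SD, n = 3) and 180 ± 51.5 CPM in Het (n = 3), and mean Mecom was 187 ± 18.4 and 182 ± 64.8 CPM. Het library 1 was the lowest of the 8 MPP1 libraries for Hlf (127 CPM), Mecom (108 CPM), Gata3 (6.84 CPM) and Erg (99.6 CPM). For Hlf, Het library 2_3 was also the highest of the 8 (229 CPM), so its Het spread came from both sides.

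In MPP2 the same members that were low in control cells had higher values in KO, but none passed the adjusted test against Het. Hlf had 104, 100.1 and 66.8 CPM in KO libraries 1, 2_3 and 4 against 45.3, 67.5 and 29.3 CPM in Het, where KO library 4 and Het library 2_3 overlapped. Mecom had 81.6, 90.1 and 68.4 CPM in KO against 36.8, 50.1 and 35.9 CPM in Het. Gata3 had 8.61, 5.93 and 6.69 CPM in KO against at most 3.72 CPM in Het. For Mecom and Gata3 every KO library was above every Het and Sham library.

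Erg in MPP2 had 112, 107 and 97.5 CPM in KO against 48.1 to 80.2 CPM in Het and 50.2 and 97.2 CPM in Sham, so the lowest KO library was level with the higher Sham library. Meis1 had 363, 345 and 349 CPM in KO against 218 to 320 CPM in Het, and Lmo2 had 705, 693 and 739 CPM against 480 to 657 CPM. The KO libraries of both genes were close together and above all control libraries, though for Lmo2 barely. Its lowest KO library had 693 CPM and its higher Sham library 692 CPM. The log2 difference of Lmo2 from Sham was 0.12 ± 0.18 (unadjusted p = 0.493, edgeR). Etv6 had 335 to 361 CPM in KO, above the highest control library of 315 CPM. Fli1 (209 to 276 CPM in KO) and Tal1 (184 to 240 CPM in KO) overlapped with both control groups.

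Against Het in MPP2 the fitted log2 differences were 0.97 ± 0.24 for Mecom (adjusted p = 0.110), 1.13 ± 0.32 for Gata3 (0.173) and 0.93 ± 0.27 for Hlf (0.296, edgeR). They were 0.72 ± 0.26 for Erg (adjusted p = 0.566), 0.38 ± 0.15 for Meis1 (0.652) and 0.37 ± 0.16 for Lmo2 (0.760, edgeR). Thus 0 of 9 members passed, against 0.415% of all genes. At an unadjusted p under 0.05, 6 of 9 members were higher in KO, against 4.06% of all genes. In 6 members all KO libraries lay above all Het libraries, which was so in 9.06% of all genes. DESeq2 called 1 member, Mecom (adjusted p = 0.0169), as did a fit to the 6 libraries compared alone (adjusted p = 0.0339, edgeR). Without MPP2 Het library 2_3, the one rich in granulocyte RNA, the difference of Hlf was 1.28 and passed (adjusted p = 0.0337, edgeR), and Mecom then had an adjusted p of 0.0797.

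**Figure D3:**
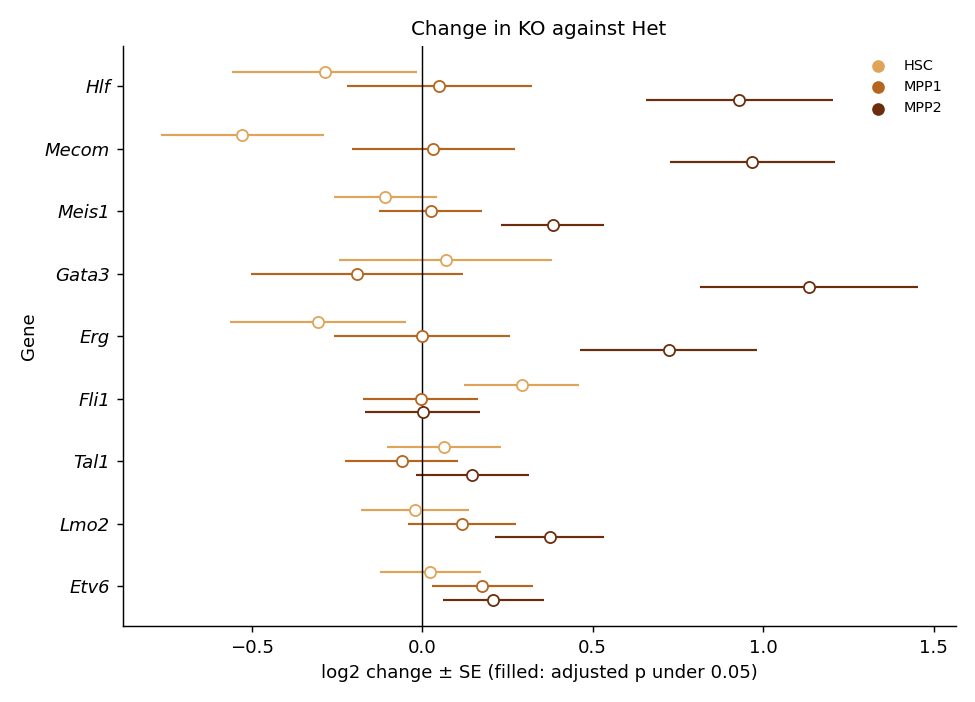
Log2 difference of each gene between KO and Het in HSC, MPP1 and MPP2, with the standard error as bars; no point is filled, since none had an adjusted p under 0.05. The MPP2 points of Hlf, Mecom, Gata3 and Erg lie between 0.72 and 1.13, and the HSC and MPP1 points of all 9 genes between -0.53 and 0.29.

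Against Sham, 2 members rose in KO MPP2: Gata3, with a log2 change of 2.25 ± 0.39 (adjusted p = 0.00258), and Mecom, with 1.36 ± 0.28 (adjusted p = 0.0200, edgeR). In that comparison 0.489% of all genes rose and 0.629% changed. Hlf, at 1.39 ± 0.32, was just over the threshold (adjusted p = 0.0534, edgeR). The unadjusted p was also under 0.05 for Meis1 (0.39 ± 0.17, adjusted p = 0.717) and Etv6 (0.36 ± 0.17, adjusted p = 0.818, edgeR), which made 5 of 9 members at that level against 3.74% of all genes. In 7 members all KO libraries were above both Sham libraries, as in 13.6% of all genes. In 6 members (Mecom, Meis1, Gata3, Erg, Lmo2 and Etv6) they were above every Het and Sham library, as in 4.14% of all genes. For Erg and Lmo2 the lowest KO library was level with the higher Sham library. Both comparisons use the same 3 KO libraries and are not independent.

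The calls against Sham depended on single libraries, as only 2 Sham libraries exist. Without Sham library 2_3, the lower one for both genes, neither passed: the adjusted p was 0.914 for Mecom and 0.401 for Gata3 (edgeR), with 1 Sham library left whose spread is then assumed to be that of the other groups. Mecom alone was also lost without KO library 1 (adjusted p = 0.0841) or KO library 2_3 (0.0916, edgeR). Hlf passed without KO library 4 (0.0274) or Sham library 4 (0.0371, edgeR). In HSC and MPP1, 0 of 9 members passed between KO and Sham by edgeR or DESeq2, against 2.28% and 0.121% of all genes. There, 0 members had an unadjusted p under 0.05, against 14.9% and 10.4% of all genes.

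Het and Sham, which differ in tamoxifen and in genotype, were then compared. No member passed in HSC, MPP1 or MPP2 by edgeR or DESeq2, and 0% of all 21456 genes did by edgeR, although 6.92%, 0.965% and 5.32% of genes had an unadjusted p under 0.05. The 1 member among these was Gata3 in MPP2, where the 3 Het libraries (2.81 to 3.72 CPM) were above both Sham libraries (1.12 and 1.87 CPM), with a log2 difference of 1.11 ± 0.38 (unadjusted p = 0.00609, adjusted p = 0.773, edgeR). For comparison, 2.75% of all genes were higher in Het MPP2 at that level. Gata3 was the member whose 3 MPP2 groups were fully separated, in the order KO, Het, Sham.

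**Figure D4:**
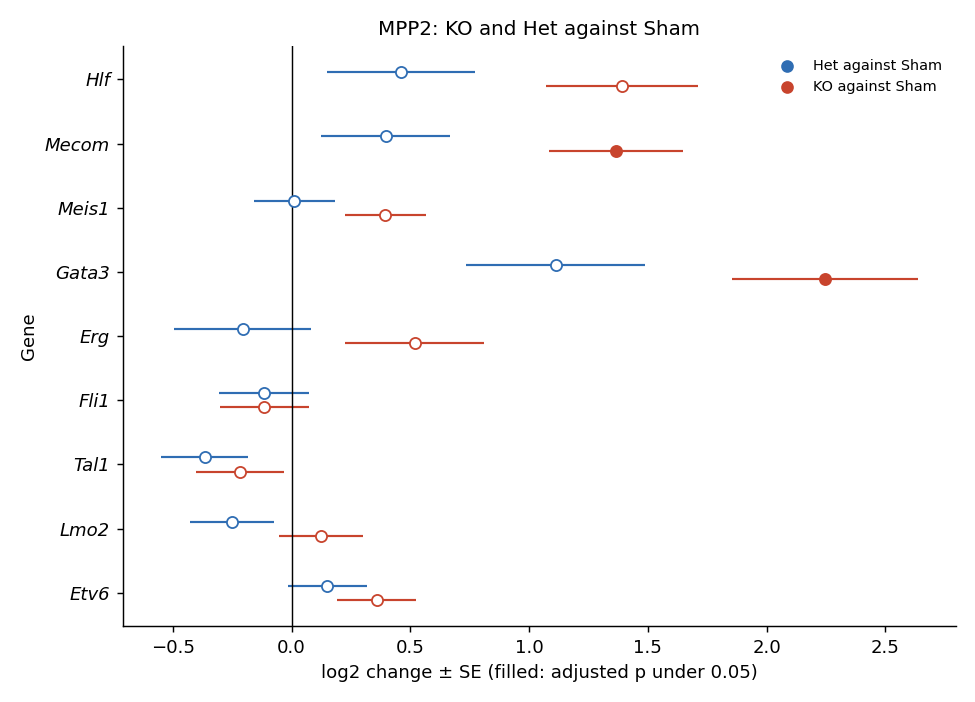
Log2 difference of each gene in MPP2 for KO against Sham and for Het against Sham, with the standard error as bars; filled points have an adjusted p under 0.05. Gata3 (2.25) and Mecom (1.36) are filled for KO, and no Het point is filled.

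Expressed as the MPP2 level in percent of the mean HSC level of the same genotype, Hlf stood at 11.7% in Sham, 19.6% in Het and 45.5% in KO. Mecom stood at 12.5%, 12.8% and 36.2%, Gata3 at 8.65%, 25.5% and 53.3%, and Erg at 39.7%, 34.3% and 70.0%. For these 4 genes and the next 3, the KO share was the highest of the genotypes. Meis1 (66.5%, 57.0% and 80.2%), Lmo2 (67.3%, 56.7% and 74.6%) and Etv6 (74.1%, 77.3% and 87.9%) differed less. Fli1 was at 94.8%, 89.4% and 73.1% and Tal1 at 130%, 104% and 111%. These shares also depend on the HSC level of each genotype, which was not constant. Mean HSC levels in Sham, Het and KO were 293, 242 and 198 CPM for Hlf and 249, 319 and 221 CPM for Mecom. For Fli1, the MPP2 mean was 236 CPM in both Het and KO, while the HSC mean was 264 and 324 CPM.

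**Figure D5:**
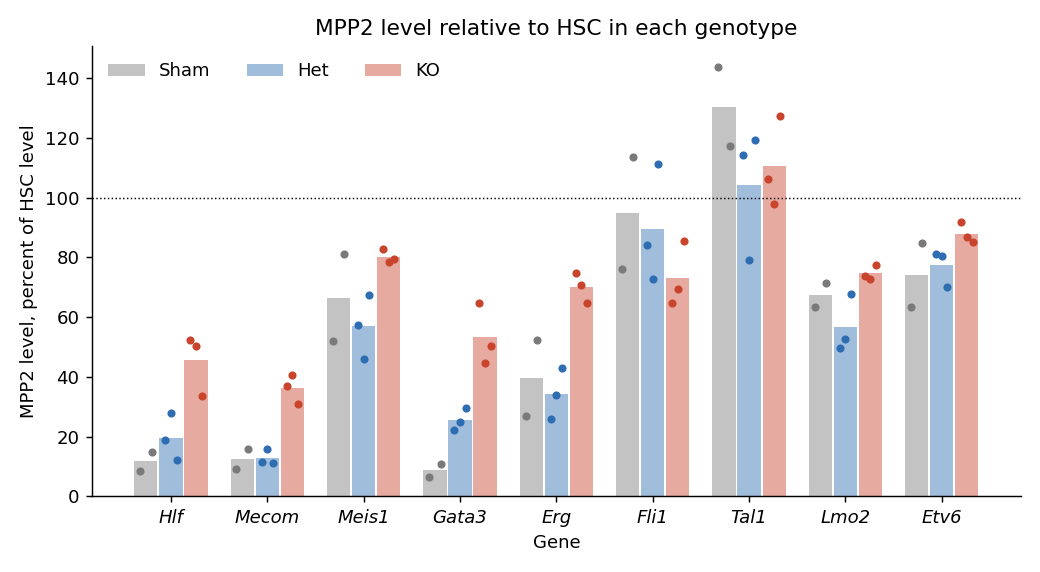
Mean MPP2 level as a percentage of the mean HSC level of the same genotype (bars, from 0), with each MPP2 library over that HSC mean as a point; the dotted line marks 100%. The KO bars of Hlf (45.5%), Mecom (36.2%), Gata3 (53.3%) and Erg (70.0%) stand above the Sham and Het bars of those genes. The height of a bar depends on both the MPP2 and the HSC level of its genotype.

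Whether the KO-Het difference itself differed between cell types was tested as an interaction, which equally compares the HSC to MPP2 step between KO and Het. For MPP2 against HSC the largest value was that of Mecom, 1.50 ± 0.34 on the log2 scale (unadjusted p = 0.000248, adjusted p = 0.185, edgeR). That value combines a KO-Het difference of 0.97 in MPP2 with one of -0.53 in HSC. Hlf gave 1.22 ± 0.39, Gata3 1.06 ± 0.44, Erg 1.03 ± 0.37 and Meis1 0.49 ± 0.21, with adjusted p values from 0.529 to 0.630. None of the 9 passed, against 0.0326% of all genes. With genotype and library number as a block, 2 members passed: Mecom (1.46, adjusted p = 0.00433) and Erg (1.03, 0.0223, edgeR). At an unadjusted p under 0.05, 5 of 9 members had a higher difference in MPP2, against 3.60% of all genes. By DESeq2, 1 member passed, Mecom (adjusted p = 0.00820). For MPP2 against MPP1, 0 of 9 passed by either tool, as did 0% of all genes by edgeR. There 3 members (Hlf, Mecom and Gata3) had an unadjusted p under 0.05, against 1.77% of all genes, with log2 values of 0.88 ± 0.39, 0.94 ± 0.34 and 1.32 ± 0.45. For MPP1 against HSC, 0 members passed by either tool, and 0% of all genes did. There, 0 members had an unadjusted p under 0.05, against 4.87% of all genes.

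Of other measurements in MPP2, some moved with the members in KO and others did not. Slamf1, the gene of the sort marker CD150, had 37.4 to 51.3 CPM in KO MPP2 and 20.2 to 28.7 CPM in the control MPP2 libraries, the KO values lying within the HSC range of 34.0 to 64.6 CPM (log2 difference from Het 0.79 ± 0.21, adjusted p = 0.118, edgeR). Ly6a, part of the Sca1 gate, had 4.66 to 8.48 CPM in KO, 1.06 to 5.04 CPM in Het and 0.825 to 1.57 CPM in Sham, so KO overlapped with Het (1.26 ± 0.40, adjusted p = 0.326) and not with Sham (2.42 ± 0.49, adjusted p = 0.0128, edgeR). Procr, another stem-cell surface gene, had 4.12 to 12.1 CPM in KO, 1.71 to 4.59 CPM in Het and 0.972 to 1.80 CPM in Sham, again overlapping with Het (1.64 ± 0.47, adjusted p = 0.280) and not with Sham (2.60 ± 0.58, 0.0557, edgeR). Cd48 RNA, high in MPP2 and near 0 in HSC, was also higher in KO MPP2 (34.0 to 56.9 CPM) than in control MPP2 (13.8 to 30.5 CPM), with a log2 difference from Het of 1.19 ± 0.77 that did not pass (adjusted p = 0.993, edgeR). Cd34 RNA was 149 to 272 CPM in KO MPP2, above the HSC range of 44.1 to 106 CPM. It was 67.6 to 230 CPM in Het MPP2, and 51.5 and 104 CPM in Sham MPP2. Kit RNA was 517 to 523 CPM in KO, 503 to 613 CPM in Het and 576 to 608 CPM in Sham MPP2. All were below the HSC range of 681 to 989 CPM. Summed neutrophil genes were 124 to 176 CPM in KO, 210 to 3552 CPM in Het and 241 to 320 CPM in Sham MPP2, so KO was the lowest. The 14 stromal and endothelial genes summed to 202 to 219 CPM in KO, 196 to 206 CPM in Het and 155 to 189 CPM in Sham MPP2. Of these 14, 11 were above 0 against Sham (median 0.39) and 5 against Het (median -0.30). Cdh5, an endothelial gene among them, averaged 0.633 CPM in KO, 1.81 CPM in Het and 0.658 CPM in Sham MPP2. It was near the floor and does not stand for the list. The 9 mast cell and basophil genes summed to 34.0 to 42.6 CPM in KO, 25.7 to 31.8 CPM in Het and 19.0 to 33.2 CPM in Sham. The 13 detected genes of T, NK and innate lymphoid cells, which also use Gata3, summed to 42.2 to 53.2 CPM in KO, 69.9 to 95.0 CPM in Het and 81.0 to 119 CPM in Sham MPP2. Most of that sum was Il1rl1, which averaged 25.5 CPM in KO and 81.6 CPM in Sham, while Cd3e, a defining T-cell gene, averaged 0.287 and 0.498 CPM. Gene by gene, 9 of the 13 were above 0 against Sham (median 0.15) and 3 against Het (median -0.81), and 0 passed in either comparison. The part of other cells in the gate in the members' levels was not tested.

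Ordering the 9 groups by mean level, neighbouring groups mostly overlapped in their libraries. Hlf had 1 gap, between the MPP1 and MPP2 groups. Mecom, Meis1 and Erg had 2 gaps each, one between MPP1 or HSC and KO MPP2 and another between KO MPP2 and control MPP2. Gata3 had 3, Lmo2 and Etv6 had 1 each (below KO MPP2), and Fli1 and Tal1 had 0. The gap below KO MPP2 was very narrow for Erg (97.5 and 97.2 CPM on its sides) and Lmo2 (693 and 692 CPM). Such gaps were not counted over all genes, so their number describes the members and does not set them apart from other genes.

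Across the 24 libraries, which share the 3 cell types and 3 genotypes, the members' log2 levels moved together to different degrees. As a description, Pearson's r was 0.98 between Hlf and Mecom, 0.94 between Mecom and Gata3, 0.93 between Hlf and Gata3 and 0.92 between Erg and Lmo2. Tal1 went the other way, at -0.51 with Hlf and -0.48 with Mecom, and Fli1 had an r of 0.37 with Hlf. Among 8973 genes with a mean of at least 10 CPM, the patterns most like that of Hlf were Gcnt2, Col4a2 and Syne2 (r = 0.98 each), and those most like Mecom were Col4a2, Procr (the surface receptor EPCR) and Mamdc2 (0.99, 0.99 and 0.98). Angpt1, a ligand of the receptor TIE2, was closest to Meis1 (0.98), Gcnt2 to Gata3 (0.95), Cyp4v3 to Erg (0.97) and Hcls1 to Lmo2 (0.95). The closest genes to Etv6 (Arid1b, 0.92), Fli1 (Pttg1ip, 0.85) and Tal1 (Coq9, 0.82) were less alike.

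Among 34 other transcription factors and cofactors that work with the members, 4 rose and 11 fell from HSC to MPP2 in Het, with a median log2 change of -0.24 against -0.01 over all genes. Of all genes, 8.37% fell and 18.0% changed in that comparison. Prdm16, a relative of Mecom, fell by 2.44 ± 0.25 (adjusted p = 8.91e-08), and Mllt3 fell by 2.24 ± 0.23 (5.56e-07, edgeR). Nkx2-3, a homeobox factor, fell by 2.79 ± 0.41 (adjusted p = 0.000106), whereas Tcf3, which encodes the E proteins that pair with TAL1, rose by 0.87 ± 0.15 (0.000138, edgeR). The other genes that rose were Myb, Ikzf1 and Zbtb16. Between KO and Het, 1 of the 34 fell in HSC, the ETS gene Ets1, by 1.13 ± 0.25 (17.7 against 38.8 CPM, adjusted p = 0.0254, edgeR). In that comparison 0.615% of all genes passed. In MPP1 and in MPP2, 0 of 34 passed. Against Sham in MPP2, 1 of 34 passed: Ldb1, the partner that LMO2 binds, fell by 0.84 ± 0.18 in KO (135 against 242 CPM, adjusted p = 0.0185, edgeR). There 0.629% of all genes passed.

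Of 17 genes described in textbooks as bound or controlled by a member, 2 rose and 3 fell from HSC to MPP2 in Het (median log2 change -0.03). Of all genes, 8.37% fell and 18.0% changed in that comparison. Among those that fell, Eng, a TGF-beta co-receptor, fell by 1.38 ± 0.20 (adjusted p = 1.05e-05, edgeR). Kit, the stem cell factor receptor, fell by 0.68 ± 0.14 (adjusted p = 0.000521, edgeR). The platelet genes Pf4 and Itga2b rose by 2.29 ± 0.63 (adjusted p = 0.0171) and 1.68 ± 0.47 (0.0195, edgeR). Between KO and Het, 0 of 17 passed in any of the 3 cell types, with medians of 0.14 in HSC, 0.04 in MPP1 and -0.08 in MPP2, beside medians over all genes of 0.03, -0.11 and -0.06.

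A list of 18 stem-cell and sort genes that are not transcription factors was read too. From HSC to MPP2 in Het 13 of them fell (median log2 change -1.65), against 8.37% of all genes. The 1 that rose was Cd48, by whose protein MPP2 were sorted, so its rise goes with the gate. Between KO and Het, 1 of the 18 fell in HSC and in MPP1, Sult1a1 in both (-2.23 ± 0.39, adjusted p = 0.00938, and -2.27 ± 0.40, 0.0217, edgeR), with medians of -0.26 and -0.10. Of all genes, 0.615% and 0.0559% passed there. In MPP2, 0 of 18 passed, and the median was 0.27. Of 20 transcription factors of committed lineages, 4 rose (Irf8, Gata1, Cebpa and Klf1) and 3 fell (among them Nfe2 and Foxo1) from HSC to MPP2 in Het, where 18.0% of all genes changed. Gata1, the erythroid and megakaryocyte factor, rose by 2.19 ± 0.45 (adjusted p = 0.0025, edgeR). In KO MPP2, against 0.415% of all genes that changed, 2 of the 20 were lower than in Het. Irf8, a monocyte and dendritic cell factor, differed by -2.91 ± 0.65 (adjusted p = 0.0382), and Satb1, a lymphoid chromatin factor, by -2.70 ± 0.53 (0.0166, edgeR). The part of Het library 2_3, rich in granulocyte RNA, in these 2 differences was not tested.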

How the data were processed

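Stranded libraries depleted of rRNA were made with the SMARTer Stranded RNA-Seq kit and sequenced paired-end, per the labels' protocols. Trimmomatic 0.33, TopHat2 2.0.9, Bowtie 1.0.0, featureCounts and build mm9 are named in the submitters' processing notes. The strand setting of the counting is not given in the sources used here. The deposited files hold whole-number counts per gene symbol and a counted gene length, and a deposited table of the authors holds normalized signal for 12186 genes, used only as an alternative (limma-trend on log2 of the value + 1). Low counts were odd in 31.4 to 44.3% of cases, so single read ends may be counted.

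Counts were scaled by TMM, filtered with filterByExpr (at least 10 counts) and tested with edgeR 4.0.16 (quasi-likelihood F test, robust, R 4.3.3), with 1 mean for each of 9 groups of libraries and 15 residual degrees of freedom. P-values are two-sided and adjusted by Benjamini-Hochberg over 21456 genes in each of 15 comparisons (threshold 0.05). SE is the log2 change over the root of F. CPM uses TMM-scaled library sizes, and log2 CPM a prior count of 2. Each library pools several mice and the labels call the samples independent, so p-values measure the spread between pools. The main fit takes no account of the library numbers.

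The labels give no origin for the library numbers. Deviations from the group means were correlated between HSC and MPP2 libraries of the same genotype and number. In all 6 pairs r was 0.222 to 0.764, above the 0.1 set for pairing. For MPP2 against HSC, the fit with genotype and number as a block is therefore printed where it changed a call. It is also printed for Mecom between MPP1 and HSC in Het, where the lowest r, 0.0990 for Het library 4, was under 0.1.

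Every member is named, with a test where the unadjusted p was under 0.05, and otherwise as a range. From other lists up to 4 genes that passed, by smallest adjusted p, are named, and further genes were named after their values were seen where 5 or fewer passed. Some genes of the lists are not reported here by name. For likeness, the 3 genes with the highest r were taken for each member. Slamf1, Procr, Cd3e, Cdh5 and the sort genes were chosen for display as markers. Members and lists were chosen with earlier results of these data known. Alternatives were RLE scaling, no filter, DESeq2 1.42.0, limma 3.58.1 on the deposited table, a replicate block, only the groups compared, and leaving out each library. Added after seeing the data was a fit without both HSC libraries that had the fewest detected genes. Gene positions are from GENCODE vM1 (mm9), and promoter sequences are from RefSeq (GRCm38.p6).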

Additional observations from a re-analysis of the deposited data

How the results depend on the processing

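Over 15 counts of members and 36 single log2 changes, 687 values were computed and no change reversed its direction. The 36 changes were those with an unadjusted p under 0.05 in the main fit. Smaller changes, which could reverse more easily, were not among them. In KO against Het in MPP2, the count of 0 members became 1 with DESeq2 and 1 with only the groups compared (Mecom in both), and leaving out single libraries gave 0 to 1. In KO against Sham in MPP2, the count of 2 became 3 with DESeq2 (Hlf added, adjusted p = 0.000682), 1 with limma-trend on the deposited table, and 0 to 3 over libraries left out. For the difference of KO against Het between MPP2 and HSC, the count of 0 became 1 with DESeq2, 1 with only the groups compared (Mecom, adjusted p = 0.0497) and 0 to 1 over libraries left out, with 1 reached without HSC Het library 1. With a replicate block of genotype and number, 2 members passed that difference (Mecom, adjusted p = 0.00433, and Erg, 0.0223), and 1 passed MPP1 against HSC in Het (Mecom, adjusted p = 0.00927, against 0 without the block). The replicate block changed no other count of members. Deviations of same-numbered libraries correlated at -0.178 to 0.447 for KO with Het, 0.0990 to 0.661 for MPP1 with HSC and 0.0255 to 0.738 for MPP2 with MPP1. Each range begins under the 0.1 set for pairing. In the last 2 the lowest value was that of Het library 4, so most same-numbered libraries of these cell types did vary together. The main fit leaves this out. In Het, counts over libraries left out were 6 to 7 for MPP2 against HSC and 5 to 6 for MPP2 against MPP1, and other settings gave 6 to 8 and 5 to 7, the highest with limma-trend. Leaving out both HSC libraries with the fewest detected genes kept the count at 6 for MPP2 against HSC in Het. Among single changes, 460 kept their side of the threshold, 17 came to pass it and 11 no longer passed it. RLE moved the share of higher calls over all genes from 58.3% to 45.5% (KO against Het, MPP1), from 65.4% to 54.5% (KO against Sham, MPP1) and from 100% to 75% (MPP1 against HSC, Het). These shares rest on few genes: with TMM, 12, 26 and 3 genes were called in these comparisons. Gata3 had the fewest counts (38 in its lowest library), and whether depth or the number of libraries limits these calls was not tested.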
